A study of Mus musculus with 24 samples.

Results

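The hippocampus of tumour-bearing mice was compared with that of mock-injected mice by bulk RNA sequencing, using the 8 hippocampal libraries of a series of 24 that also covers neocortex and cerebellum. Members were chosen by the tissue and treatment labels: 4 libraries from mice injected with LLC cells (replicates 1 to 4, collected 3 weeks after injection) and 4 from control mice given a mock injection (replicates 14 to 17). All mice were male, of strain C57BL/6J and 4 months old. No transgene or drug is labelled. LLC is commonly short for Lewis lung carcinoma, a tumour line grafted into mice, although no label writes the name in full. The title of the series names melanoma and cachexia, the wasting of body tissues during cancer. The labels call the libraries biological replicates without saying whether a pool of animals went into any of them, so p-values measure the spread between these libraries. Of the genes in the deposited table, 14650 averaged at least 1 TPM (a transcript level scaled for gene length and library total) over the 8 libraries and were tested.

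The hippocampus holds layers of glutamatergic neurons, the dentate granule cells and the pyramidal cells of fields CA1 to CA3, along with interneurons, glia and a dense capillary bed. Its neurons carry high levels of the glucocorticoid and mineralocorticoid receptors, which bind the steroid hormones released by the adrenal gland during illness and stress. Tumours outside the brain can reach it through blood-borne hormones, cytokines and leukocytes, which meet the endothelial cells of the blood-brain barrier first.

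Marker genes of the hippocampal fields were present in every library. Prox1, which marks dentate granule cells, measured 40.7 to 52.7 TPM in LLC and 30.9 to 46.4 TPM in control libraries. Fibcd1, a CA1 marker, measured 84.2 to 112 TPM in LLC and 101 to 126 TPM in control libraries, Rgs14, a CA2 marker, 119.6 to 147 TPM and 111 to 131 TPM, and Bok, a CA3 marker, 89.7 to 127 TPM and 97.3 to 125 TPM. The number of genes at 1 TPM or above was 14448 to 14792 in LLC and 14487 to 14587 in control libraries. Read counts were not used here, so the depth is unknown. Of the 8 libraries, 4 stood apart. Choroid plexus, the secretory tissue of the ventricles, was present in 3 of them: Ttr, its transthyretin gene, was at 7290 TPM in LLC replicate 2 and at 2506 and 3968 TPM in control replicates 14 and 17, against 38.4 to 103 TPM in the other 5 libraries. LLC replicate 4 departed least from the controls, with a median change over the called genes of 0.29 log2 units in their direction, against 0.45, 0.41 and 0.41 in LLC replicates 1, 2 and 3.

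Between LLC and control hippocampus, 529 of the 14650 genes (3.61%) passed an adjusted p of 0.05 (limma on log2(TPM + 1), Benjamini-Hochberg over all genes tested), 378 higher in LLC (2.58%) and 151 lower (1.03%). Counts by gene list below are to be read against these shares. The LLC libraries lay wholly above or below the controls in 2016 genes (13.8%). The split between higher and lower calls depended on scaling: it was 317 to 226 with median-ratio scaling, 324 to 237 with quantile scaling, and 307 to 301 after a trend in gene length and GC content was removed. The genes that rose had a median GC content of 54.4% and those that fell 46.9%, against 51.3% over all genes, and the part of base composition in the calls was not tested beyond that removal. Without LLC replicate 4 the count was 1667 (11.4%), which included all 529. It was 104, 83 and 153 without LLC replicates 1, 2 and 3, and 59, 57, 90 and 103 without control replicates 14, 15, 16 and 17. Replicate 4 departed least from the controls, so its removal favours more calls, and no other single removal raised the count. List counts without replicate 4, given below, describe that library and are not added support. Without the 3 libraries that held choroid plexus, which leaves 3 LLC and 2 control libraries, no gene passed by limma, while 1598 of 14607 had an unadjusted p under 0.05. In all 8 fits that left out 1 library, 40 genes passed. Only 22 of the 79 calls among the named genes did so. For many genes below the number of fits passed is given out of 8, and a call printed without it may have passed in as few as 1.

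**Figure D1:**
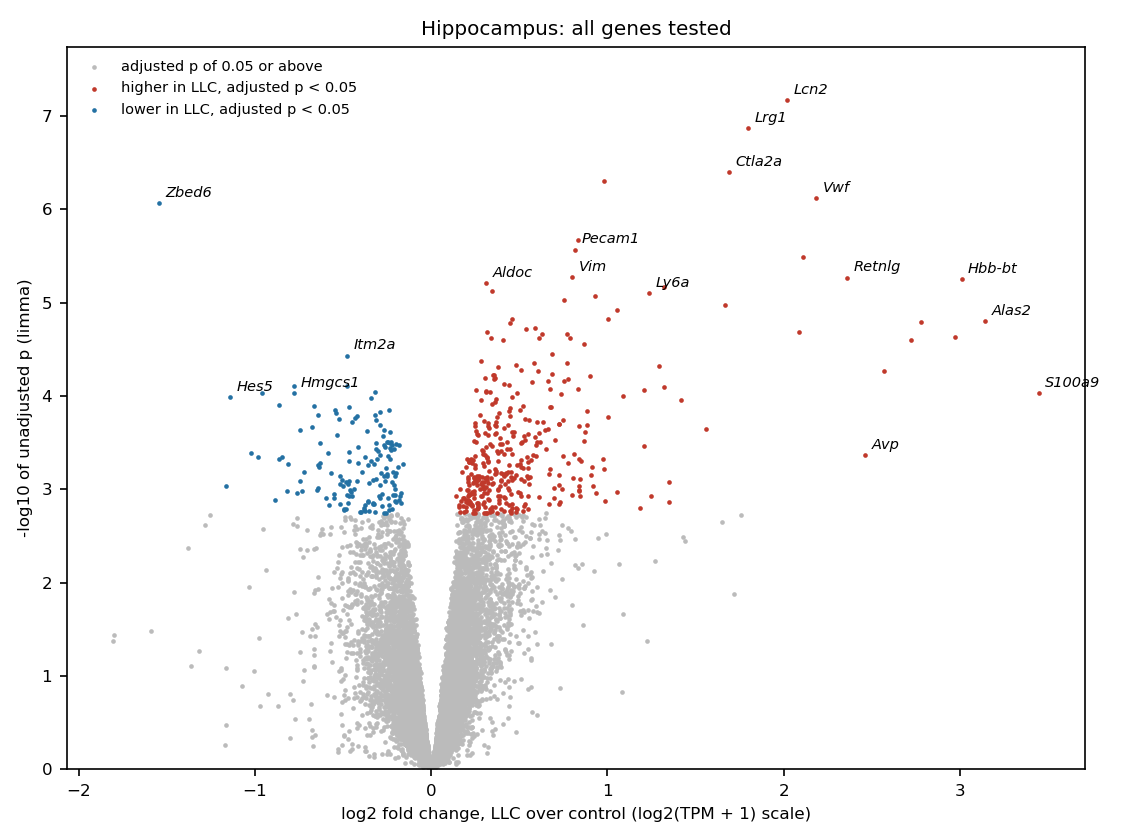
Each point is 1 of the 14650 genes tested, with the log2 fold change of LLC over control hippocampus on the x axis and the -log10 of the unadjusted limma p on the y axis; coloured points passed an adjusted p of 0.05. The 378 genes that rose extend past 3 log2 units, with erythroid and neutrophil genes, Avp and Vwf among those farthest out, and the 151 that fell reach -1.55 at Zbed6.

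The largest rises belonged to genes of blood cells. Of 7 erythroid genes tested, 5 rose and none fell, against 2.58% and 1.03% of all genes. Their median was 2.72 log2 units against 0.01 over all genes. The transcripts of the alpha and beta chains of adult haemoglobin summed to 7057, 7701, 10338 and 2609 TPM in LLC hippocampus and to 727, 774, 1114 and 1176 TPM in control hippocampus. All LLC libraries lay above all controls, with replicate 4 lowest of the LLC group, and the difference was 2.74 log2 units (exact two-sided permutation test over 70 splits, p = 0.0286, the smallest it can give). The coding sequences of the pair Hba-a1 and Hba-a2 and of the pair Hbb-bs and Hbb-bt differ at 1 base each (99.77% identical). The levels of single copies are therefore uncertain, and the sum is given. Alas2, which catalyses the entry step of haem synthesis in red cell precursors, was at 47.4, 40.1, 58.8 and 12 TPM in LLC and 2.42, 2.31, 3.39 and 4.09 TPM in control libraries. It was 3.14 ± 0.40 log2 units higher (SE, here and below, 4 and 4 libraries; limma, adjusted p = 0.00967) and passed in 8 of 8 fits. Bpgm, which makes bisphosphoglycerate in red cells, and Slc25a37, an iron importer of mitochondria, are also expressed outside blood and did not pass (0.17 and -0.13 log2 units). In bulk tissue a larger number of blood cells and more RNA per blood cell cannot be told apart. Whether vessels were flushed before dissection is not given in the sources used here.

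Neutrophil genes followed, with 4 of 6 tested higher and none lower, against 2.58% and 1.03% of all genes, and a median of 2.01 log2 units. S100a9, a subunit of calprotectin that is abundant in neutrophils, measured 12.4, 47, 22.4 and 69.5 TPM in LLC hippocampus, against 1.05, 0.682, 2.11 and 5.96 TPM in control hippocampus. The groups did not overlap. The order of the LLC libraries was not that of haemoglobin: replicate 4 was highest here and lowest there. S100a9 was 3.45 ± 0.55 log2 units higher (limma, adjusted p = 0.0179) and passed in 4 of 8 fits, while its partner S100a8, at 2.97 ± 0.40, passed in 8 (limma, adjusted p = 0.01). Retnlg, a resistin-like protein of neutrophils, was at 3.01, 5.4, 3.07 and 9.25 TPM in LLC libraries and at 0.113, 0, 0.121 and 0.233 TPM in controls, where replicate 15 is listed at 0. Chil3, a chitinase-like protein of neutrophils and macrophages, was at 1.85, 3.8, 2.06 and 3.31 TPM in LLC and 0, 0.0436, 0.0898 and 0.563 TPM in control libraries. Both groups were apart for each of these genes, and both genes rose in 8 of 8 fits (2.36 ± 0.27 and 1.67 ± 0.21 log2 units, limma, adjusted p = 0.00681 and 0.00825). The summed level of all 13 neutrophil genes of the list, tested or not, was 33.2, 90.0, 47.9 and 131 TPM in LLC libraries. In control libraries it was 8.39, 7.72, 10.2 and 17.7 TPM, a difference of 2.55 log2 units (exact two-sided permutation test, p = 0.0286). Of 8 monocyte and lymphocyte markers none reached the level for testing, and neither of the 2 platelet genes tested passed. Gp1bb, a chain of the platelet receptor for von Willebrand factor, was at 0.10 and Pf4, platelet factor 4, at 0.07 log2 units. The sum of all 6 platelet genes of the list, tested or not, was 14.1, 13.7, 12.2 and 13.3 TPM in LLC libraries. In control libraries it was 10.8, 11.5, 10.7 and 11.7 TPM, below every LLC library.

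**Figure D2:**
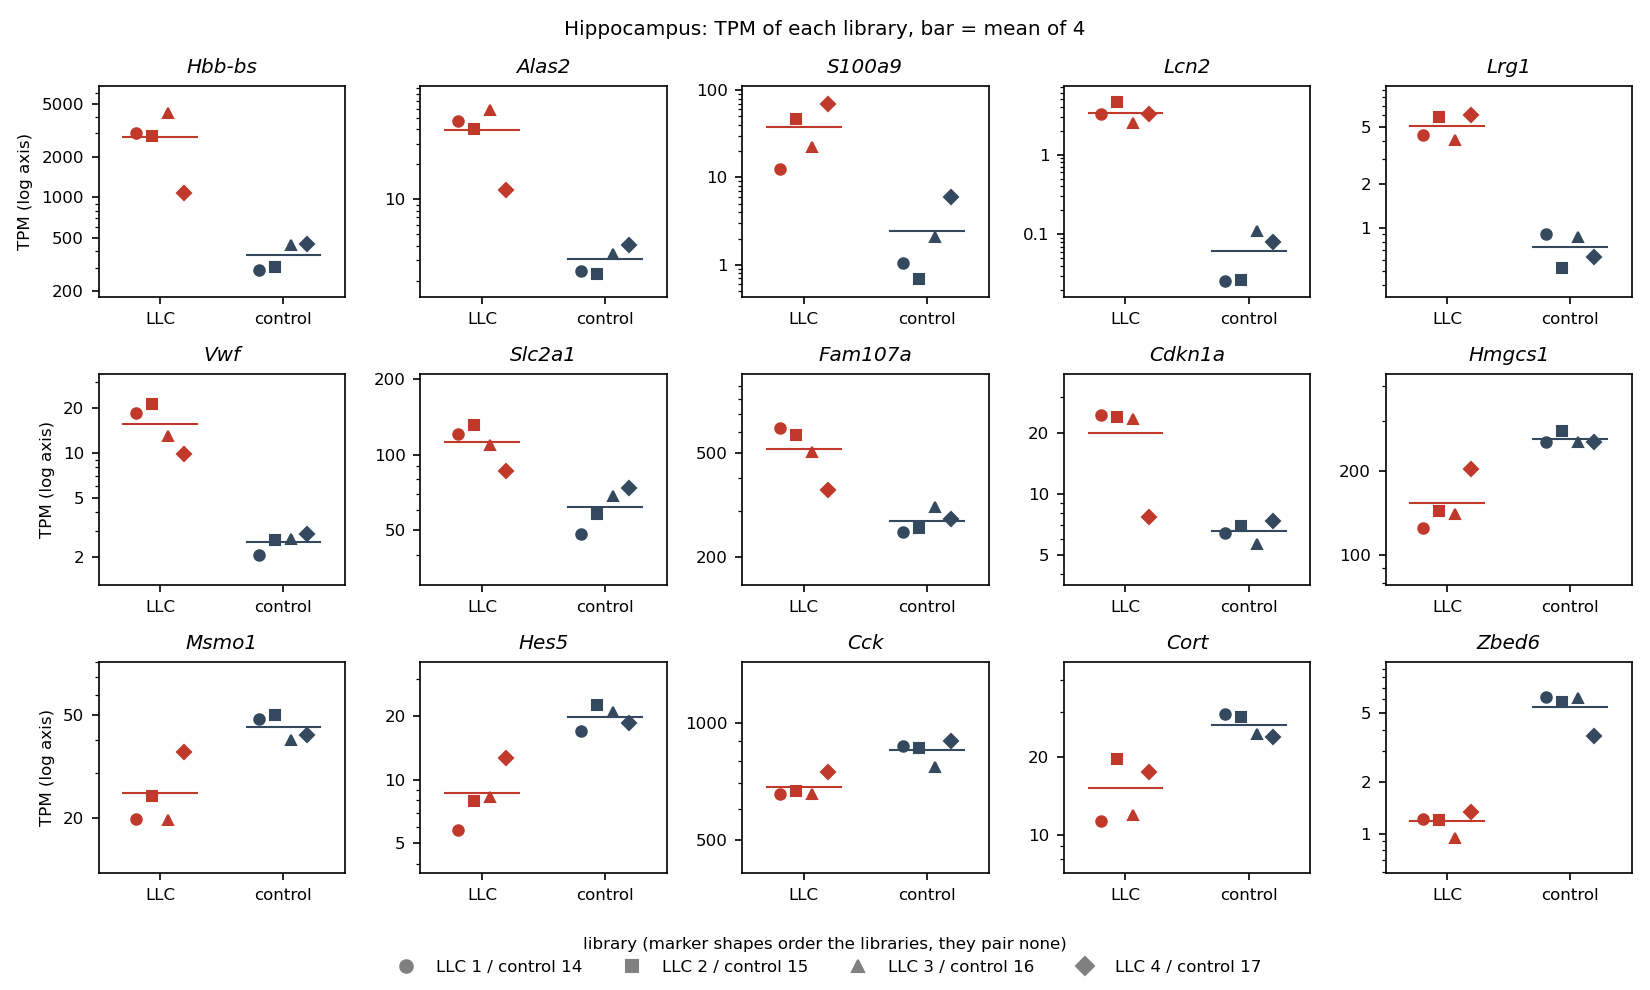
TPM of 15 genes in each hippocampal library on log axes, LLC on the left and control on the right of each panel; bars are means of 4 libraries and marker shapes only identify libraries. The groups are apart in every panel, and LLC replicate 4 (diamond) lies nearest the controls for the haemoglobin gene Hbb-bs, Fam107a, Cdkn1a, Hmgcs1, Msmo1, Hes5 and Cck but is the highest LLC library for S100a9.

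Genes of the acute phase response and of STAT3 signalling rose in 5 of 14 cases, and none fell, against 2.58% and 1.03% of all genes. Their median was 0.40 log2 units, against 0.01 over all genes. Lcn2, the secreted iron-siderophore binder lipocalin 2 (mm10, chromosome 2, 32384633 to 32388252), was at 3.27, 4.54, 2.46 and 3.2 TPM in LLC hippocampus, against 0.0261, 0.0271, 0.112 and 0.0808 TPM in controls. Lrg1, a secreted leucine-rich glycoprotein that acts on vessels (chromosome 17, 56119678 to 56122001), was at 4.38, 5.84, 4.03 and 6 TPM in LLC and 0.912, 0.527, 0.868 and 0.628 TPM in control libraries. For both the lowest LLC library was well above the highest control, and LLC replicate 4 was within the range of the other LLC libraries for Lcn2 and highest for Lrg1. They had the smallest p-values of all genes, at 2.02 ± 0.14 and 1.80 ± 0.14 log2 units (limma, adjusted p = 0.000993 for both), and passed in 8 of 8 fits. Both are also genes of neutrophils, whose transcripts were higher in the same 4 LLC libraries, and the part of neutrophils in these rises was not tested. Cebpd, a transcription factor induced by cytokines and glucocorticoids, was at 34.5, 27.3, 25.2 and 26.6 TPM in LLC and 15.9, 15.9, 17.7 and 15.8 TPM in control libraries, again without overlap (0.75 ± 0.09, limma, adjusted p = 0.0076). Ch25h, which adds a hydroxyl group to cholesterol, was at 4.8, 3.68, 2.55 and 1.41 TPM in LLC libraries and between 0.422 and 0.507 TPM in controls (1.42 ± 0.23, limma, adjusted p = 0.0192). Osmr, the receptor subunit for oncostatin M, rose by 0.45 ± 0.09. Stat3 itself, its feedback inhibitor Socs3, the shared receptor subunit Il6st and the astrocyte protease inhibitor Serpina3n did not pass, at 0.15, 0.54, -0.05 and 0.02 log2 units. The serum amyloid genes Saa1, Saa2 and Saa3 stayed below the level for testing, at most 0.579 TPM in any library. None of the complement, interferon-stimulated or prostaglandin and cytokine signalling lists held a gene that passed (0 of 11, 0 of 11 and 0 of 5 tested). At 3.61% of all genes, lists this small would often hold none. Il1r1, the interleukin-1 receptor, was at 0.40 ± 0.13 log2 units (limma, adjusted p = 0.112).

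The endothelial list held 9 genes that rose and 2 that fell among 17 tested, against 2.58% and 1.03% of all genes, with a median of 0.51 log2 units. Vwf, the clotting and adhesion protein stored in Weibel-Palade bodies (chromosome 6, 125546774 to 125686679), was at 18.7, 21.2, 12.9 and 9.87 TPM in LLC hippocampus and 2.07, 2.59, 2.65 and 2.84 TPM in control hippocampus. All 4 LLC libraries were above all controls (8.95% of all genes), and the difference of 2.19 ± 0.20 log2 units passed in 8 of 8 fits (limma, adjusted p = 0.0021). Pecam1, a junctional adhesion protein of endothelium, was at 21.6, 22.2, 18.9 and 17.7 TPM in LLC and 11, 12.3, 10.2 and 10.3 TPM in control libraries (0.82 ± 0.09, limma, adjusted p = 0.00493). Flt1, a receptor for vascular endothelial growth factor, was at 32.6, 32.7, 30.6 and 23.6 TPM in LLC and 15.2, 18.7, 16 and 17.3 TPM in control libraries (0.79 ± 0.11, limma, adjusted p = 0.01). Ly6a, a surface protein of mouse brain endothelium, was at 117, 98.1, 95.1 and 69.97 TPM in LLC and 34.2, 39.6, 36.3 and 47.7 TPM in control libraries (1.24 ± 0.15, limma, adjusted p = 0.00729). None of these genes overlapped between the groups, and each passed in 8 of 8 fits. Cdh5, Kdr, Cldn5, Esam, Abcb1a and Ly6c1 also rose, by 0.39 to 1.09 log2 units, a set that spans junction proteins, a growth factor receptor and the efflux pump P-glycoprotein. Reads of Ly6c1 can be shared with its close copy Ly6c2, so its level is uncertain.

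Other endothelial genes moved differently. Itm2a, a membrane protein enriched in brain endothelium, was at 49.5, 58, 55.9 and 63.2 TPM in LLC and 77.2, 82.8, 78.7 and 77.2 TPM in control libraries and fell (-0.48 ± 0.07, limma, adjusted p = 0.0135, 7 of 8 fits). Gkn3, a marker of arterial endothelium in mouse brain, was at 2.63, 1.88, 3.6 and 3.5 TPM in LLC and 4.48, 7.82, 8.14 and 6.52 TPM in control libraries and also fell (-0.99 ± 0.19, limma, adjusted p = 0.0299, 3 of 8 fits). Both genes were lower in every LLC library than in every control. The organic anion carrier Slco1a4, the efflux pump Abcg2, the sialomucin Emcn and the receptor Tie1 did not pass, at 0.20, 0.05, 0.02 and 0.17 log2 units. A further 3 genes with large rises lie outside the lists and were chosen after their values were seen. Tmem252, a small membrane protein, averaged 6.14 ± 2.14 TPM in LLC and 0.608 ± 0.268 TPM in control libraries (SD, n = 4 each), Acer2, an alkaline ceramidase on the route to sphingosine-1-phosphate, 17.2 ± 6.38 and 3.08 ± 0.746 TPM, and Ctla2a, a cysteine protease inhibitor, 29.8 ± 6.64 and 8.39 ± 0.643 TPM. They rose by 2.11 ± 0.23, 2.09 ± 0.28 and 1.69 ± 0.14 log2 units and passed in 8 of 8 fits each (limma, adjusted p = 0.00531, 0.01 and 0.00183).

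A list of leukocyte adhesion molecules, which endothelium displays to passing white cells, and of Weibel-Palade body genes held 3 of 6 that rose: the adhesion molecules Icam1 and Icam2, and Vwf of the storage body. Without LLC replicate 4 the count was 5, against 6.48% of all genes higher in that fit. Icam1, the ligand of leukocyte integrins, was at 6.32, 6.09, 4.69 and 4.31 TPM in LLC and 2.53, 1.96, 1.82 and 2.31 TPM in control libraries, a rise of 1.00 ± 0.13 (limma, adjusted p = 0.00967, 8 of 8 fits). Icam2, a second integrin ligand of endothelium, was at 4.73, 5.29, 3.88 and 4.26 TPM in LLC and 2.3, 2.88, 2.35 and 3.08 TPM in control libraries (0.60 ± 0.11, limma, adjusted p = 0.0267, 2 of 8 fits). In the vessel wall, 3 of 11 mural cell genes and 3 of 14 basement membrane genes rose and none fell (medians 0.25 and 0.24 log2 units). Of all genes 2.58% rose and 1.03% fell. Kcnj8 and Abcc9, the subunits of the potassium channel of pericytes, averaged 7.14 ± 1.64 and 7.28 ± 2 TPM in LLC libraries, against 3.59 ± 0.513 and 3.52 ± 0.554 TPM in controls (SD, n = 4 each). Sparc, a matrix-binding glycoprotein, averaged 355 ± 61.7 TPM in LLC and 205 ± 8.68 TPM in control libraries, and Col4a1, a chain of type IV collagen, 52.1 ± 4.74 and 37.6 ± 2.79 TPM. Sparc passed in 8 of 8 fits (0.77 ± 0.11, limma, adjusted p = 0.0151), Col4a1 in 5 (0.46 ± 0.07, limma, adjusted p = 0.0186) and the pericyte channel genes in 1 each (limma, adjusted p = 0.0296 and 0.0358). Haemoglobin and neutrophil transcripts were higher in the same 4 LLC libraries, and their part in the vascular rises was not tested. Vwf and Pecam1 are also expressed by platelets, whose 2 tested markers and higher list sum in LLC are given above.

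**Figure D3:**
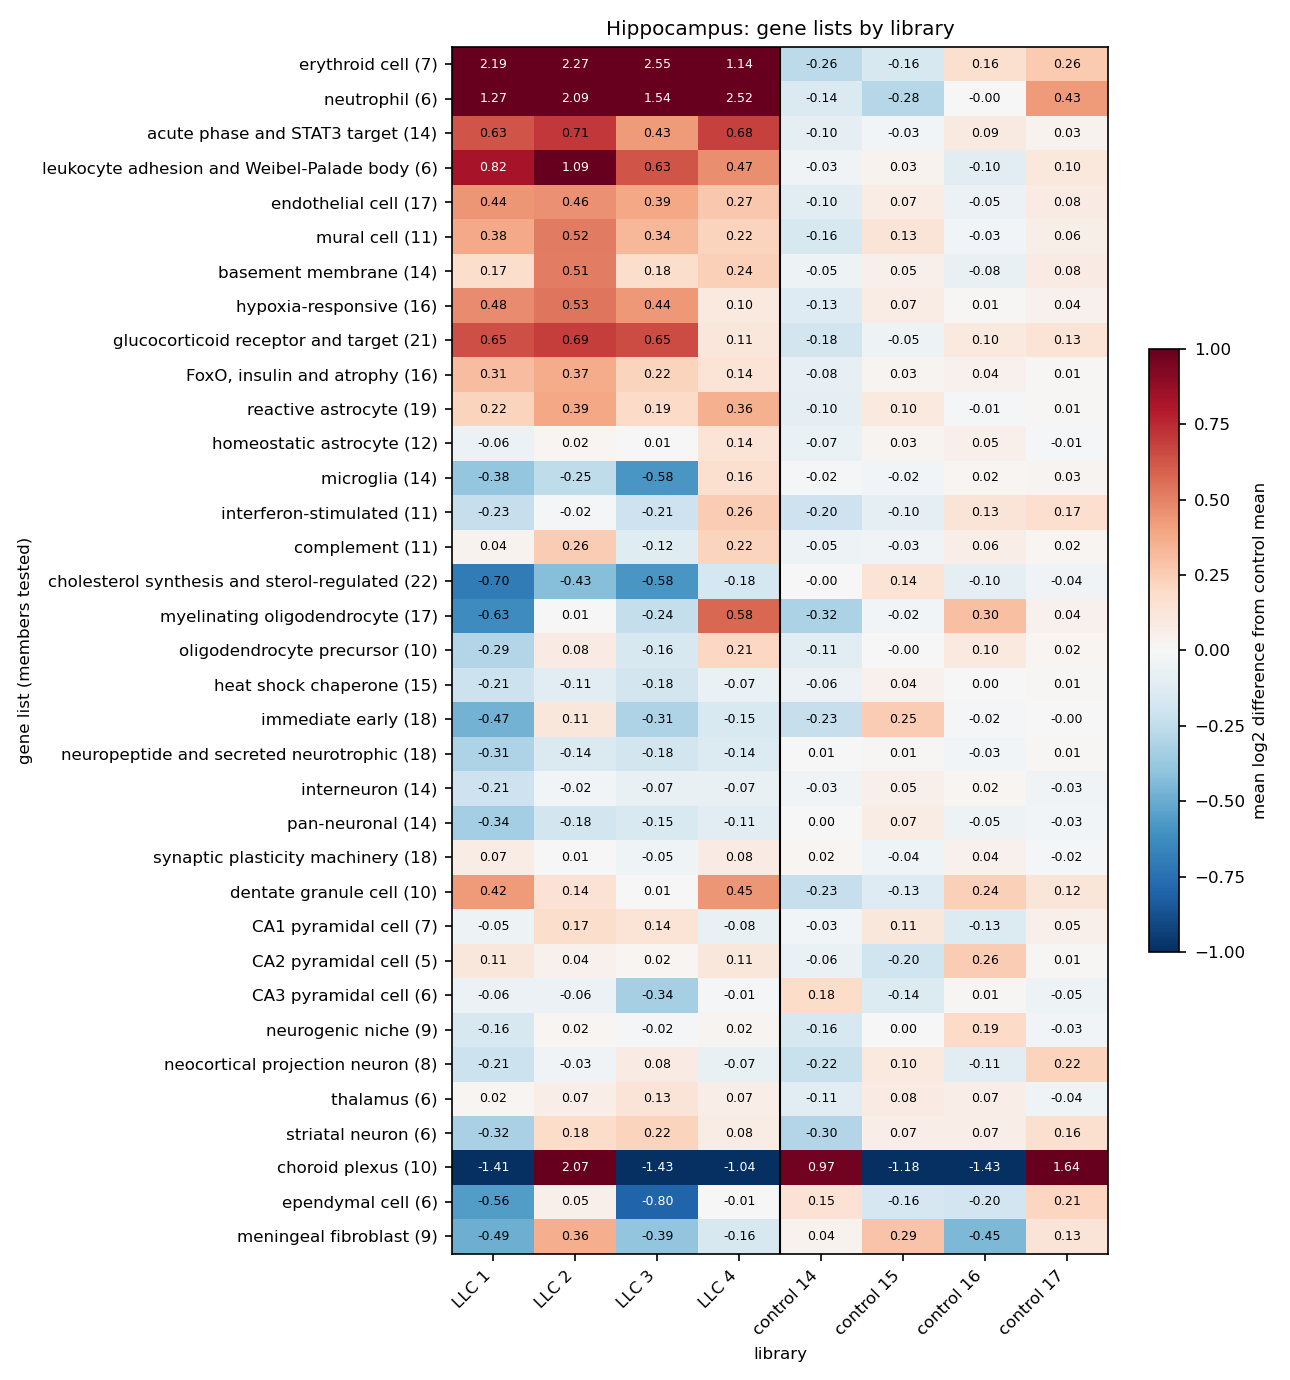
Mean log2(TPM + 1) difference of each gene list from the control mean in each hippocampal library, with LLC libraries left of the line, control libraries right of it, and colours limited to -1 and 1. The erythroid, neutrophil, acute phase, leukocyte adhesion, endothelial, mural and basement membrane lists are above 0 in all 4 LLC libraries, the cholesterol list is below 0 in all 4, the glucocorticoid list is at 0.11 in LLC replicate 4, and choroid plexus marks LLC replicate 2 and control replicates 14 and 17.

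Glucocorticoid-responsive genes rose in 6 of 21 cases, with none lower and a median of 0.34 log2 units; without LLC replicate 4 the count was 12, against 6.48% of all genes higher in that fit. Glucocorticoid receptors bind as dimers to inverted repeats in DNA, searched here as GNACA and TGTNC separated by 3 bases. That motif was sought on both strands in the 250 bases before each RefSeq start of a gene (build GRCm38.p6). The 10905 tested genes with a window had 14030 windows, and a gene counted if any of its windows held the motif. It occurred in 4 of the 19 list members with a window, of which 3 rose and the fourth, Sgk1, did not pass, and in 0.330% of the 10905 tested genes with a window. The other genes of the list that rose, Arrdc2, Sult1a1 and Cdkn1a, have no match in their windows. The 4 windows are shown because they hold the motif, and capitals mark it. The motif stands 106 bases before the start in Fam107a, 82 in Mt1, 169 in Map3k6 and 176 in Sgk1, counted to its last base. The Fam107a window lies within the annotated gene (chromosome 14, 8296274 to 8318023), before an internal start.
Fam107a (chr14:8309780-8310029, minus strand): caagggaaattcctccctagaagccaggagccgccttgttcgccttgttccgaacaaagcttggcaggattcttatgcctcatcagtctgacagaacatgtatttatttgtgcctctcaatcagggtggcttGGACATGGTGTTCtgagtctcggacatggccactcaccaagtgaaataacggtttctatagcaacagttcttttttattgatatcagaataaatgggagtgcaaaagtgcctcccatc
Mt1 (chr8:94178839-94179088, plus strand): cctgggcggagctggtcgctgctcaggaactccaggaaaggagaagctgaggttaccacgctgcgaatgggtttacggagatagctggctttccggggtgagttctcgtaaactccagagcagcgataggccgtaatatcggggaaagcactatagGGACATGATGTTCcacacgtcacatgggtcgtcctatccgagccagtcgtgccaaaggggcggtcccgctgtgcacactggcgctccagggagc
Map3k6 (chr4:133240568-133240817, plus strand): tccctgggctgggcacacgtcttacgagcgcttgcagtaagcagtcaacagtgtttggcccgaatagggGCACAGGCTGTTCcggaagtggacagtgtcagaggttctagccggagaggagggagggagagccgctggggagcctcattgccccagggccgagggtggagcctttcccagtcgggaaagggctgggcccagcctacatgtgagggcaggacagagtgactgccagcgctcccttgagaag
Sgk1 (chr10:21993640-21993889, plus strand): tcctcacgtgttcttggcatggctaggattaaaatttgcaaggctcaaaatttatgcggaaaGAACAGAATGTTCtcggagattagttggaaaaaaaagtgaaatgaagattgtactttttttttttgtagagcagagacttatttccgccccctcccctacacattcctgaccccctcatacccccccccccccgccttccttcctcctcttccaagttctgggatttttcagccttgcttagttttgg
A match describes these letters and is not evidence of binding in these samples. The list was itself drawn up from genes known to respond to glucocorticoids, and with earlier results of these data known. A STAT motif, TTC and GAA separated by 3 bases, stood in 1 of 12 windows of the acute phase list described above (8.33%, against 7.13% of all tested genes with a window). That gene was Socs3, and none of the 4 list members that rose and had a window held it. The E-box CACGTG stood in 5 of 14 windows of the clock list (35.7%, against 9.76%), in which no gene passed. A heat shock element, GAA, TTC and GAA each 2 bases apart, stood in 2 of 11 windows of the chaperone list (18.2%, against 0.449%), 1 of them in a gene that passed. The cAMP response element, TGAC followed by GTCA, stood in 2 of 14 windows of the immediate early list (14.3%, against 3.07%), neither in a gene that passed. A metal response core, TGCNC followed by NCNG, stood in 7 of 19 windows of the glucocorticoid list (36.8%, against 25.3%), 1 of them in a gene that passed, Mt1.

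Fam107a, an actin-binding protein induced in hippocampus by stress, was at 623, 582, 505 and 362 TPM in LLC hippocampus and 250.4, 258, 311 and 279.8 TPM in control hippocampus. Every LLC library was above every control, with replicate 4 nearest to them, and the gene rose by 0.89 ± 0.15 log2 units (limma, adjusted p = 0.0215, 2 of 8 fits). Mt1, a metallothionein that binds zinc and copper, was at 863, 847, 932 and 715 TPM in LLC and 555, 577, 649 and 651 TPM in control libraries (0.46 ± 0.08, limma, adjusted p = 0.0249, 1 of 8 fits). Its neighbour Mt2 was at 0.13 ± 0.10 and did not pass. Map3k6, a stress kinase, was at 4.43, 4.66, 5.22 and 2 TPM in LLC and 0.996, 1.59, 1.39 and 2.03 TPM in control libraries. Control replicate 17 was above LLC replicate 4, and the gene rose by 0.98 ± 0.22 (limma, adjusted p = 0.0444). Sgk1, the serum- and glucocorticoid-regulated kinase, was at 90.8, 112, 91.2 and 40.3 TPM in LLC and 34.2, 35.2, 43.4 and 53 TPM in control libraries. Replicates 1, 2 and 3 of the LLC group were above all controls and replicate 4 was among them. The gene did not pass (0.92 ± 0.28, limma, adjusted p = 0.0922).

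The same division within the LLC group appeared elsewhere in the list. Cdkn1a, the cell cycle inhibitor p21, was at 24.5, 24.1, 23.5 and 7.65 TPM in LLC and 6.4, 6.88, 5.64 and 7.31 TPM in control libraries. The first 3 LLC libraries were above 3 times every control and the fourth was just above them. The rise was 1.35 ± 0.31 over all 4 (limma, adjusted p = 0.0447) and 1.73 without replicate 4. Sult1a1, a sulfotransferase, was at 43.3, 34, 33.9 and 14.2 TPM in LLC and 9.63, 9.07, 11.2 and 14.1 TPM in control libraries, with LLC replicate 4 and control replicate 17 nearly level (1.35 ± 0.29, limma, adjusted p = 0.036, 1 of 8 fits). Plin4, a lipid droplet protein, was at 12.6, 18.5, 24.7 and 2.86 TPM in LLC and 1.1, 1.72, 4.91 and 5.62 TPM in control libraries and did not pass (1.72 ± 0.57). Arrdc2, an arrestin-like protein, rose by 1.00 ± 0.17 (limma, adjusted p = 0.0226, 1 of 8 fits). Other well-known targets did not pass: Fkbp5, a co-chaperone of the receptor, was at 0.34 ± 0.13, Tsc22d3 at 0.26 ± 0.19 and Per1 at 0.20 ± 0.13 log2 units. The receptors themselves did not pass either. Nr3c1, the glucocorticoid receptor, was at 33.9, 37.3, 37.8 and 38.7 TPM in LLC and 35.9, 38, 40.5 and 39.7 TPM in control libraries (-0.06 ± 0.06), and Nr3c2, the mineralocorticoid receptor, was at 95.4, 87.7, 93 and 105 TPM in LLC and 116, 86, 96.6 and 81.4 TPM in control libraries (0.01 ± 0.10), a value whose sign changes between fits.

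Hypoxia-responsive genes showed a like division: 2 of 16 rose and none fell (median 0.23 log2 units), and without LLC replicate 4 the count was 8, against 6.48% of all genes. Vegfa, the vascular endothelial growth factor, was at 112, 116, 114 and 61.4 TPM in LLC and 47, 63.1, 56.1 and 50.7 TPM in control libraries. Its first 3 LLC libraries were above all controls, while the fourth lay below control replicate 15 (0.85 ± 0.19, limma, adjusted p = 0.0414). Slc2a1, the glucose transporter of the blood-brain barrier, was at 121, 131, 109 and 86.1 TPM in LLC and 48.3, 58, 68.4 and 73.3 TPM in control libraries without overlap (0.84 ± 0.15, limma, adjusted p = 0.0234). Adm, the vasodilator peptide adrenomedullin, was at 15, 12.5, 11.1 and 2.48 TPM in LLC and 1.06, 2.37, 2.54 and 1.83 TPM in control libraries and just missed the threshold (1.76 ± 0.42, limma, adjusted p = 0.051). The glycolytic genes Pgk1 and Ldha, which hypoxia also induces, were at -0.08 ± 0.04 and 0.01 ± 0.06 and did not pass. Of 16 genes of insulin and FoxO signalling and atrophy, 3 rose: Txnip, which restrains glucose uptake (0.87 ± 0.16), Sesn1, a sestrin (0.42 ± 0.09), and Cdkn1a. The count was 5 without LLC replicate 4, against 6.48% of all genes higher in that fit. Fth1, the ferritin heavy chain that stores iron, averaged 6935 ± 312 TPM in LLC and 5501 ± 181 TPM in control libraries and rose by 0.33 ± 0.05 (limma, adjusted p = 0.0179). It was the gene of 11 in iron handling that passed.

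Genes of cholesterol synthesis and a few other sterol-regulated genes, 22 in one list, were lower in LLC hippocampus, 12 of them by the test. The pathway builds sterols from acetyl-CoA, and its genes are switched together by the sterol-sensing SREBP2 system. None of the 22 rose, the fitted change was below 0 in all 22, and the median was -0.47 log2 units against 0.01 over all genes; in 14 of the 22 every LLC library was below every control (4.81% of all genes). Without LLC replicate 4, 18 of the 22 fell, against 4.90% of all genes. Hmgcs1, the synthase at the entry of the pathway (chromosome 13, 119690379 to 119708260), was at 125, 144, 140.4 and 204 TPM in LLC and 253, 277, 254 and 253 TPM in control libraries. Replicate 4 was the highest of the LLC group but still below every control, and the gene fell (-0.78 ± 0.12, limma, adjusted p = 0.0179, 4 of 8 fits). Sqle, squalene epoxidase, was at 18, 21.5, 19.8 and 28.3 TPM in LLC and 33.5, 39.3, 31.1 and 32.6 TPM in control libraries (-0.63 ± 0.13, limma, adjusted p = 0.0311).

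Falls ran along the pathway. In the steps from mevalonate to squalene, Mvd, Idi1, Fdps and Fdft1 fell by 0.76, 0.72, 0.39 and 0.46 log2 units, while the kinases Mvk and Pmvk did not pass (-0.26 and -0.17). After squalene, Cyp51, Msmo1, Nsdhl and Sc5d fell. Msmo1, a methylsterol oxidase, had the largest change of the list, at 19.9, 24.3, 19.6 and 36.1 TPM in LLC and 48.3, 50.2, 39.96 and 41.8 TPM in control libraries (-0.86 ± 0.17, limma, adjusted p = 0.0305). Lss, Tm7sf2, Ebp, Hsd17b7 and Dhcr7 did not pass. Among SREBP2-regulated genes outside synthesis, Stard4, a sterol carrier, fell (-0.65 ± 0.14, limma, adjusted p = 0.0393), while Insig1, which retains SREBP2 in the endoplasmic reticulum, was at -0.40 ± 0.13 and did not pass. Hmgcs1 passed in 4 of 8 fits, Nsdhl in 2, and Cyp51, Sc5d and Msmo1 in 1 each. A form of the sterol regulatory element, ATCAC and CAC separated by 2 bases on either strand, stood in the 250-base window of 1 of 15 members, Msmo1, and in 0.633% of all tested genes with a window. Oligodendrocytes make much of the brain's cholesterol: none of 17 oligodendrocyte genes passed, and their summed level was 1981, 3136, 2684 and 4372 TPM in LLC libraries, against 2343, 2900, 3647 and 3117 TPM in controls. The LLC library with the smallest cholesterol falls, replicate 4, had the highest oligodendrocyte level and replicate 1, with the largest mean fall of the list, the lowest. LLC replicates 2 and 3 were within the control range of that level, with mean cholesterol changes of -0.43 and -0.58 log2 units. Control replicates 14 and 16, with the lowest and highest oligodendrocyte level among controls, had -0.004 and -0.095. The part of oligodendrocyte content in the falls was not tested.

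**Figure D4:**
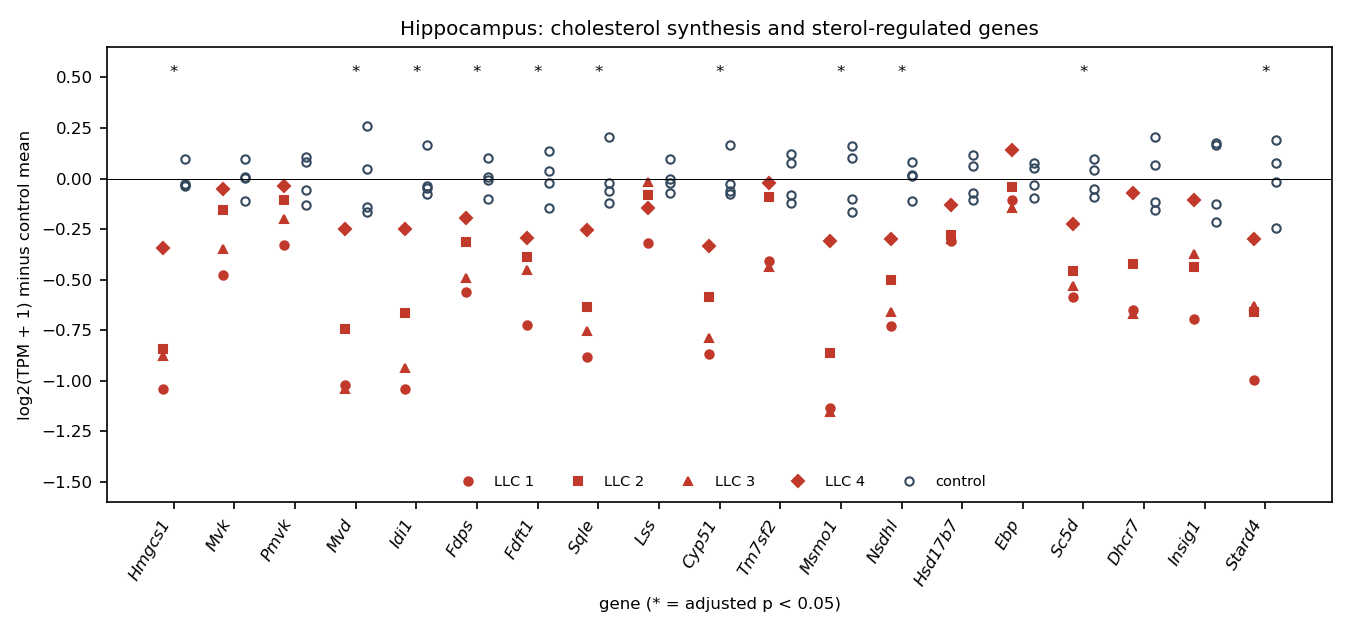
Difference of log2(TPM + 1) from the control mean for 19 of the 22 cholesterol synthesis and sterol-regulated genes, LLC libraries filled and left of control libraries (open circles) at each gene, with asterisks over the 11 of them at an adjusted p under 0.05. LLC replicate 4 (diamonds) is nearest to the controls in most genes, and Msmo1, at -0.86, has the largest fitted fall.

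Outside the lists, Zbed6 fell most. Zbed6, an intronless gene for a transcriptional repressor that lies within its host gene Zc3h11a (chromosome 1, 133655879 to 133660885), was at 1.22, 1.2, 0.945 and 1.34 TPM in LLC hippocampus and 6.16, 5.79, 6.09 and 3.68 TPM in control hippocampus. All LLC libraries were below all controls, with control replicate 17 the lowest of its group, and the fall of -1.55 ± 0.14 log2 units passed in 8 of 8 fits (limma, adjusted p = 0.0021). Zc3h11a, named after its values were seen, was at 65.2, 64.7, 63.7 and 75.3 TPM in LLC and 62.1, 66.8, 71.6 and 69 TPM in control libraries and did not pass (-0.00 ± 0.06). Reads of overlapping genes may have been divided between them by the authors' counting. Lnpep, a membrane aminopeptidase that cleaves oxytocin and vasopressin, was at 2.24, 4.11, 3.45 and 2.17 TPM in LLC and 5.11, 6.69, 9.69 and 6.93 TPM in control libraries (-1.02 ± 0.20, limma, adjusted p = 0.0291, 2 of 8 fits). Fzd3, a Wnt receptor of growing axons, was at 3.55, 4.8, 3.41 and 3.09 TPM in LLC and 6.6, 6.94, 9.97 and 6.92 TPM in control libraries (-0.87 ± 0.14, limma, adjusted p = 0.0207). Kcna3, a voltage-gated potassium channel, averaged 0.854 ± 0.195 TPM in LLC and 2.19 ± 0.329 TPM in control libraries (-0.78 ± 0.12, limma, adjusted p = 0.0179). Zfp871, a zinc finger protein, and Ptar1, a prenyltransferase subunit, fell by 0.96 and 0.89 log2 units.

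Hes5, an effector of Notch signalling in neural progenitors and astrocytes (chromosome 4, 154960923 to 154962371), was at 5.78, 7.98, 8.31 and 12.7 TPM in LLC hippocampus and 17, 22.7, 21 and 18.6 TPM in control hippocampus. The groups did not overlap, and it fell by 1.14 log2 units (SE 0.18, limma, adjusted p = 0.0186, 4 of 8 fits). It was the gene of 13 in Notch signalling that passed. Hes1 was at -0.27 ± 0.08 and Rbpj, the DNA-binding partner of Notch, at -0.00. Astrocyte genes moved in several directions. Vim, the intermediate filament vimentin of reactive astrocytes and vessels, was at 81, 82.5, 79.99 and 64.7 TPM in LLC and 37.7, 44.2, 45.5 and 47.6 TPM in control libraries and rose (0.80 ± 0.09, limma, adjusted p = 0.00681, 8 of 8 fits). Gfap, the filament by which reactive astrocytes are most often recognised, was at 140.1, 179, 140.4 and 299 TPM in LLC and 239, 246, 282 and 257 TPM in control libraries, below the controls in replicates 1, 2 and 3 and above them in replicate 4, and did not pass (-0.50 ± 0.21). In the reactive astrocyte list 6 of 19 rose and none fell: Lcn2, Vim, Srgn, Fbln5, Osmr and Emp1, several of which vascular and white blood cells also express. Of 12 homeostatic astrocyte genes 2 rose: Aldoc, the brain aldolase (0.31 ± 0.04, limma, adjusted p = 0.00697, 8 of 8 fits), and Gjb6, a gap junction connexin (0.70 ± 0.16, limma, adjusted p = 0.0423, 1 of 8 fits). Of these 12, 3 rose and 3 fell without LLC replicate 4, against 6.48% and 4.90% of all genes.

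Microglial markers showed no call: 0 of 14 passed, with a median of -0.24 log2 units and summed levels of 367, 393, 321 and 527 TPM in LLC libraries, against 459, 453, 481 and 478 TPM in controls. The first 3 LLC libraries were below all controls and replicate 4 was above them, and without replicate 4, 10 of the 14 fell, against 4.90% of all genes. P2ry12, the purine receptor of resting microglia, was at 33.3, 37.1, 31.2 and 50.8 TPM in LLC and 45.8, 44.9, 56.2 and 50.4 TPM in control libraries (-0.38 ± 0.14). Fcrls, a receptor found on mouse microglia, was at 15.3, 19.7, 10.2 and 31.7 TPM in LLC and 28, 29.2, 27.3 and 29 TPM in control libraries (-0.65 ± 0.26).

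Neuronal genes changed by smaller amounts. Of 14 pan-neuronal genes, Stmn2, a microtubule regulator of axons, and Tubb3, the neuronal beta tubulin, fell (-0.29 ± 0.06 and -0.58 ± 0.13, limma, adjusted p = 0.0296 and 0.0454), and Rbfox3, the splicing factor NeuN, rose (0.16 ± 0.04, limma, adjusted p = 0.0454). Each passed in 1 of 8 fits. The fitted change was below 0 in 13 of the 14, with a median of -0.16 log2 units. Without LLC replicate 4, 7 fell and 1 rose, against 4.90% and 6.48% of all genes. The summed level of the 14 was 4839, 4961, 5093 and 5265 TPM in LLC libraries, against 5767, 5840.5, 5451 and 5524 TPM in controls, without overlap. Markers of the hippocampal fields gave a single call (0 of 10 dentate granule, 1 of 7 CA1, 0 of 5 CA2, 0 of 6 CA3 and 0 of 5 mossy cell genes): Pou3f1, a POU transcription factor of CA1, at 0.38 ± 0.08 (limma, adjusted p = 0.0394, 1 of 8 fits). All 10 dentate granule genes had fitted changes above 0, between 0.13 and 0.38, and none passed. Their sum was 538, 451, 425 and 549 TPM in LLC libraries, against 344, 369, 470 and 429 TPM in controls, and the groups overlapped. The part of the dissected share of dentate gyrus was not tested. Neurogenic niche markers gave 0 calls of 9, with Neurod1, expressed in newborn granule neurons, at 0.25 ± 0.10. Among 18 synaptic genes Camk2b, a subunit of calcium/calmodulin kinase II, and Grin1, the obligate NMDA receptor subunit, rose by 0.29 ± 0.06 and 0.14 ± 0.03 (limma, adjusted p = 0.0296 and 0.0414). Bdnf, the neurotrophin studied most in hippocampal plasticity, was at 21.9, 21.8, 17.1 and 25.6 TPM in LLC and 24.3, 22.8, 27.4 and 23.1 TPM in control libraries and did not pass (-0.18 ± 0.11).

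Neuropeptide transcripts fell in 4 of 18 cases and rose in 1, against 1.03% and 2.58% of all genes (median -0.22 log2 units). Cck, cholecystokinin of interneurons, was at 657, 669, 657 and 748 TPM in LLC and 870.5, 860.0, 772 and 898 TPM in control libraries, all LLC libraries below all controls (-0.32 ± 0.06, limma, adjusted p = 0.0281). Npy, neuropeptide Y, was at 125, 127, 117 and 144 TPM in LLC and 172, 159, 156 and 173 TPM in control libraries, again without overlap (-0.36 ± 0.06, limma, adjusted p = 0.0244). Cort, the somatostatin-like peptide cortistatin, was at 11.3, 19.7, 11.9 and 17.5 TPM in LLC and 29.3, 28.6, 24.6 and 24 TPM in control libraries (-0.81 ± 0.16, limma, adjusted p = 0.0314). Nptx2, a secreted pentraxin of excitatory synapses, was the other one that fell. These genes passed in 1 or 2 of 8 fits (Npy 1, Cck 2, Cort 2). Interneuron markers otherwise did not pass: in that list of 14, Npy and Cck were the calls. Of 18 immediate early genes, which neurons switch on within minutes of firing, Homer1 fell (-0.31 ± 0.06, limma, adjusted p = 0.0305). The median of the list was -0.27 log2 units, and Fos and Arc, at 2.48, 10.1, 4.15 and 6.61 TPM and 45.8, 79, 43.2 and 80.1 TPM in LLC libraries against 5.56, 13.7, 9.54 and 8.45 TPM and 74.1, 102, 89.2 and 85.1 TPM in controls, overlapped between the groups and did not pass.

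Avp, the precursor of vasopressin made by hypothalamic neurons, was among the 10 largest rises. It was at 13.5, 20.2, 6.09 and 25.7 TPM in LLC hippocampus and 0.711, 1.36, 1.27 and 5.88 TPM in control hippocampus. The groups did not overlap, but control replicate 17 was just below the lowest LLC library, and the rise of 2.46 ± 0.48 passed in 3 of 8 fits (limma, adjusted p = 0.0298). A list of 11 hypothalamic neuron genes was drawn up after this value was seen. Of these 6 were tested, and Avp and Trh rose. The sum of all 11 was 23.6, 30.4, 18.2 and 44.4 TPM in LLC libraries, against 9.99, 12.1, 12.1 and 14.6 TPM in controls. This sum includes Avp, the gene that prompted the list, so it is not a result apart from Avp. Trh, thyrotropin-releasing hormone, was at 1.68, 1.69, 3.26 and 1.9 TPM in LLC and 0.593, 0.926, 1.11 and 0.817 TPM in control libraries (0.73 ± 0.17, limma, adjusted p = 0.0447). Oxt, oxytocin, was at 1.05, 1.77, 1.2 and 7.21 TPM in LLC and 0.127, 0.265, 0.956 and 0.79 TPM in control libraries and did not pass (1.09 ± 0.40). Gal, Pomc and Cartpt did not pass (0.03, 0.10 and -0.48), and Sim1, a transcription factor of the nuclei that make vasopressin, was at most 0.00997 TPM in any library. The part of neighbouring tissue in the Avp rise was not tested.

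Markers of other tissue are to be read against the 3.61% of all genes called. The calls were 0 of 8 for neocortical projection neurons, 1 of 6 for thalamus (Ramp3, 0.43 ± 0.08), 1 of 6 for striatal neurons (Pde10a, 0.25 ± 0.05), 1 of 9 for meningeal fibroblasts (Lum, -0.54 ± 0.09), 0 of 10 for choroid plexus and 0 of 6 for ependymal cells. Differences in dissection were not tested. Chaperones fell in 4 of 15 cases and rose in 1. Without LLC replicate 4, 8 fell and 1 rose, against 4.90% and 6.48% of all genes. Hspa4, a partner of Hsp70, was at 124, 133, 122 and 143 TPM in LLC and 159, 158, 163 and 157 TPM in control libraries (-0.29 ± 0.05, limma, adjusted p = 0.0234, 1 of 8 fits). Hspa4l, the mitochondrial Hspd1 and the cytosolic Hsp90aa1 fell by 0.32, 0.21 and 0.18 log2 units, while Hspa1b, an inducible Hsp70 with a near-identical copy that makes its level uncertain, rose (0.42 ± 0.10). Of 20 nuclear genes of the respiratory chain Cycs, cytochrome c, and Cox5a, a subunit of complex IV, fell by 0.25 and 0.17 log2 units, where 1.03% of all genes fell. None passed among 13 mitochondrially encoded genes, 18 genes of endoplasmic reticulum stress and ATF4, 16 clock genes, 9 thyroid hormone genes or 10 oligodendrocyte precursor genes. Each of these lists held 1 or 2 calls without LLC replicate 4, a fit that called 11.4% of all genes. Atf4, Cry2 and Dio2 came nearest in their lists (limma, adjusted p = 0.0726, 0.0534 and 0.0619).

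The LLC effect in hippocampus was then set against that in the other regions by testing the difference between the effects over all 24 libraries. Against neocortex, 0 of 14152 genes passed by limma, and 271 had an unadjusted p under 0.05 (1.91%). That share is below the 5% that no difference would give, so this fit was a cautious one. The median SE of a difference was 0.12 log2 units, and a p that misses the threshold does not show that the effects were alike. Among hippocampal calls, 302 were called in the same direction in neocortex, 57.1% of the hippocampal and 24.4% of the neocortical list. Against cerebellum, 13 of 13884 genes passed (0.0936%), and 1706 had an unadjusted p under 0.05 (12.3%). The hippocampal calls shared with cerebellum in direction were 130, or 24.6% of the hippocampal and 35.5% of the cerebellar list. The labels do not say whether libraries of the 3 regions came from the same mice, and the fit took all libraries as independent. S100a9 in LLC replicates 1 to 4 was at 22.1, 86.0, 30.7 and 117 TPM in neocortex. In cerebellum it was at 22.8, 59.7, 25.6 and 93.6 TPM, and the order of the replicates was that of hippocampus. If libraries of the same number share a mouse, the fit leaves that pairing out. With title numbers as a replicate block, 1 gene passed against neocortex (limma, 870 at an unadjusted p under 0.05) and 3 against cerebellum.

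Gda, guanine deaminase, differed most clearly from cerebellum. In hippocampus it was at 116, 137, 136 and 121 TPM in LLC and 142, 145, 149 and 139.8 TPM in control libraries, and in cerebellum at 2.04, 2.05, 1.66 and 1.62 TPM in LLC and 0.621, 0.394, 0.557 and 0.606 TPM in control libraries. All LLC libraries lay below all controls in hippocampus, where the gene did not pass, and above them in cerebellum, where it rose (-0.18 ± 0.06 and 0.88 ± 0.11 log2 units, difference -1.06 ± 0.09, limma, adjusted p = 9.42e-07), and its level was far lower in cerebellum. Npy, lower in LLC hippocampus, was at 49.8, 72.4, 60.4 and 41.9 TPM in LLC and 32.3, 35.2, 31.5 and 38.1 TPM in control cerebellum, where every LLC library was above every control (difference -1.03 ± 0.15, limma, adjusted p = 0.00362). Vim, higher in LLC hippocampus, was at 179, 211, 188 and 204 TPM in LLC and 197, 239.7, 227 and 243 TPM in control cerebellum, with overlapping groups (difference 1.01 ± 0.15, limma, adjusted p = 0.00362). Each of these 3 differences passed in all 8 fits that left out a replicate number. Hes5 fell in hippocampus and was at 0.18 ± 0.10 in cerebellum, where its level was 2.05 to 3.27 TPM (difference -1.32 ± 0.24, limma, adjusted p = 0.0258, 1 of 8 fits). Glis3, a Krüppel-like zinc finger protein, rose in hippocampus, at 13.7, 10.4, 9.39 and 12.9 TPM in LLC and 6.04, 5.55, 7.86 and 6.5 TPM in control libraries, and was at -0.05 ± 0.11 in cerebellum (difference 0.79 ± 0.14, limma, adjusted p = 0.0255, 3 of 8 fits). The remaining 8 genes, among them Lacc1, Shisa9, Sh2b2, Samd5 and Ccdc3, had not passed within hippocampus either, and their differences lay between -0.80 and 0.89 log2 units. The spread within groups was larger in LLC cerebellum (median SD over genes 0.165 log2 units) than in LLC hippocampus (0.111), and with weights per region the count was 6. No difference from neocortex passed for the genes that lead the hippocampal list: Lcn2 was 2.02 ± 0.14 in hippocampus and 2.67 ± 0.13 in neocortex, Hmgcs1 -0.78 ± 0.12 and -0.71 ± 0.12, and Fam107a 0.89 ± 0.15 and 1.01 ± 0.15. Several of the largest falls had unlike estimates in hippocampus and neocortex: Zbed6 -1.55 ± 0.14 and -0.24 ± 0.16, Lnpep -1.02 ± 0.20 and 0.02 ± 0.06, and Fzd3 -0.87 ± 0.14 and -0.07 ± 0.07. They were not particular to hippocampus, since in cerebellum Zbed6 was at -1.99 ± 0.57, Lnpep at -2.25 ± 0.47 and Fzd3 at -1.52 ± 0.24. Within cerebellum Lnpep and Fzd3 passed (limma, adjusted p = 0.0455 and 0.0225) and Zbed6 did not (0.0847). Hes5 and Gkn3 fell in neocortex too, at -0.91 and -1.05. The SE of a difference drew on all 24 libraries, cerebellum included, and was 0.57 for Zbed6. Avp, at 58.8, 5.31, 15 and 2.06 TPM in LLC and 27.4, 4.07, 17.8 and 4.87 TPM in control neocortex, differed by 2.41 ± 0.94 without passing.

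**Figure D5:**
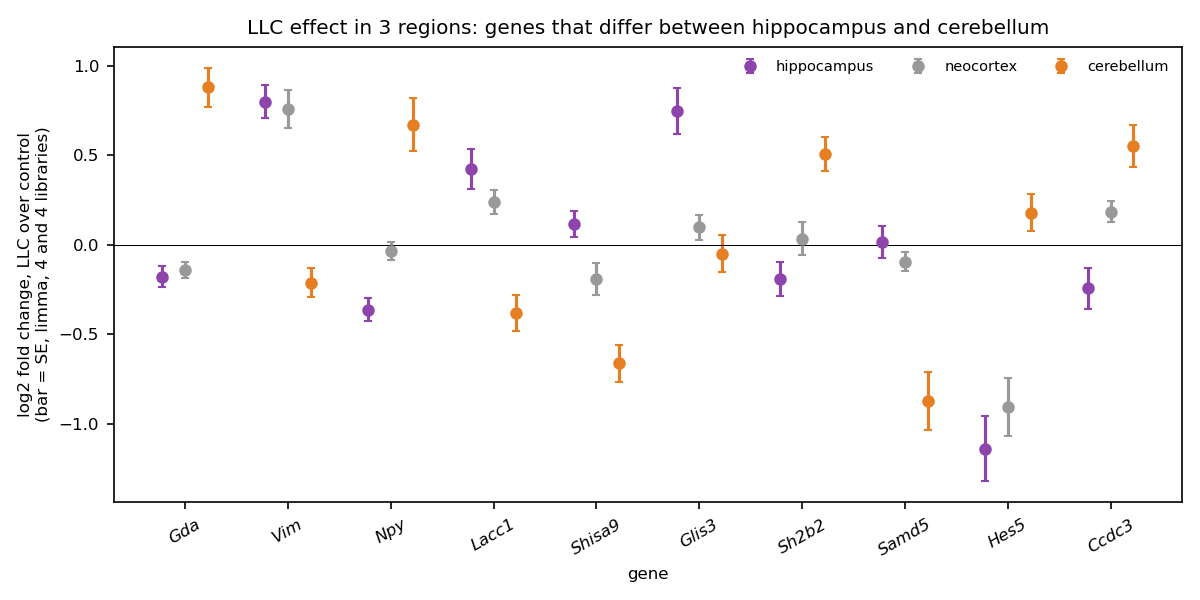
Log2 fold change of LLC over control in hippocampus, neocortex and cerebellum for 10 genes whose effect differed between hippocampus and cerebellum; points are limma estimates from 4 and 4 libraries and bars their SE. Gda, Npy, Sh2b2 and Ccdc3 are below 0 in hippocampus and above 0 in cerebellum, Vim, Lacc1 and Shisa9 the reverse, and the neocortex values of Gda, Vim and Hes5 lie near those of hippocampus.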

How the data were processed

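Stranded TruSeq libraries of hippocampal messenger RNA were sequenced on a NovaSeq machine (per the labels' protocols). What the authors deposited is a TPM value for each gene symbol and library. The submitters' processing notes name mm10 as the build; aligner, counter and annotation are not given in the sources that were used. TPM keeps no depth, so no intervals from counting are given. Genes averaging at least 1 TPM over the 8 libraries were tested on log2(TPM + 1) with limma 3.58.1 in R 4.3.3 (trended eBayes, two-sided, Benjamini-Hochberg, threshold 0.05). A fold change on this scale understates the change of low genes. Differences between regions used 1 fit of 24 libraries and genes at 1 TPM in both regions. Sums were tested by exact permutation. The main fits, within hippocampus and of differences between regions, were tested on simulated data with independent libraries. The alternative settings and the motif search were not. No pair of libraries was identical. Alternatives covered pseudocount, filter, scaling, library weights, a replicate block and leaving out each library.

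Members, gene lists and alternatives were chosen with earlier results of these data known. Named genes were the 10 largest rises and falls that passed without overlap, and at most 4 members of each list that passed with the smallest p (otherwise the best 2). The haemoglobin genes, Nr3c1, Nr3c2, Bdnf, Gfap and leading field markers were added, and for each region difference the 5 largest either way. Others are further members of those lists or are named as chosen later. Predicted genes and pseudogenes were not named. A few further list members count in the totals but are not reported here by name. Coordinates are those of GENCODE M21 on mm10. Sequences are from RefSeq (GRCm38.p6), with a window for 10905 of 14650 genes. Figures were drawn with matplotlib 3.10.9.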

Additional observations from a re-analysis of the deposited data

Results flagged for a closer look

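In 14 groups of 4 libraries, a single library of a named gene lay far from the other 3 by Dixon's criterion; 158 groups were checked, and chance flags about 1 in 20. LLC replicate 4 stood apart from the other LLC libraries in 5 of them, each time on the side of the controls: Kcnj8 at 4.70 TPM, Cck at 748 TPM, Vim at 64.7 TPM, Vegfa at 61.4 TPM and Cdkn1a at 7.65 TPM. LLC replicate 3 was high for Trh, at 3.26 TPM. Among controls, replicate 17 was high for Avp (5.88 TPM) and Chil3 (0.563 TPM) and low for Zbed6 (3.68 TPM). Control replicate 16 was high for Fzd3 (9.97 TPM) and Cebpd (17.7 TPM) and low for Cox5a (424 TPM). Control replicate 15 was high for Hmgcs1 (277 TPM) and low for Camk2b (401 TPM).

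For 10 named genes the LLC effect in hippocampus minus that in cerebellum passed the test of the difference (limma): Hes5 at -1.32, Gda at -1.06, Npy at -1.03, Ccdc3 at -0.80, Sh2b2 at -0.70, Vim at 1.01, Samd5 at 0.89, Lacc1 at 0.81, Glis3 at 0.79 and Shisa9 at 0.78 log2 units.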

How the results depend on the processing

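The 529 calls became 220 with no filter, 1180 with library weights, 57 to 1667 with 1 library left out, and 0 (limma; 1598 at an unadjusted p under 0.05) without the 3 libraries that held choroid plexus, an alternative chosen after seeing the data that leaves 5 libraries. The description number as a replicate block gave 179 calls. Same-numbered libraries did not deviate together (correlations of 0.12, -0.25, 0.16 and -0.13), so the numbers give no pairing. In that replicate block the summed haemoglobin and neutrophil differences were 2.74 and 2.55 log2 units (exact permutation p = 0.125, the smallest 4 pairs allow). With 1 library left out the haemoglobin difference was 2.49 to 3.15 log2 units and the neutrophil difference 2.22 to 2.87.

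The difference from neocortex gave 2 genes with no filter and 1 with title numbers as a replicate block, where 870 had an unadjusted p under 0.05. Hippocampal libraries correlated with the same-numbered libraries of neocortex at -0.10 to 0.63 (4 of 8 over 0.1) and of cerebellum at -0.05 to 0.46 (6 of 8). The library of its own number correlated best for 3 of 8 hippocampal libraries in neocortex and 7 of 8 in cerebellum, a hint from the data and not the design. The difference from cerebellum gave 3 genes with a filter at 5 TPM, 20 with quantile scaling, 595 with library weights, 2 from the 16 libraries of both regions, 3 with the replicate block, 6 with weights per region (chosen after seeing the data) and 3 to 171 with 1 replicate number left out, against 13.

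Of the 79 named calls, 79 held with library weights, 74 with either scaling, 47 with no filter and 0 without the choroid plexus libraries. Signs changed for 7 named genes that did not pass. With 1 library left out Pf4 ranged from -0.034 to 0.17 log2 units, Nr3c2 from -0.054 to 0.12, Bok from -0.049 to 0.12, Samd5 from -0.045 to 0.056 and Zc3h11a from -0.059 to 0.025. Quantile scaling gave 0.028 for mt-Nd4l, 0.057 for mt-Nd2 and -0.0032 for Samd5, library weights -8.12e-05 for Samd5, removal of the length and GC trend -0.0079 for Nr3c2 and -0.0023 for Bok, and leaving out the choroid plexus libraries -0.11 for Pf4 and -0.053 for Samd5. The cause was not tested.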
